A study of Rattus norvegicus with 4 samples.

Results

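The genes described here encode proteins of the spliceosome and the SR and hnRNP families. Members were all rat genes whose symbol starts with Srsf, Hnrnp, Snrp, Sf3a, Sf3b or Prpf, together with U2af1 and U2af2. Probes were named by matching their accession, without version, to a RefSeq gene table of the GRCr8 assembly. This gave 62 members, read by 105 probes, among 16581 named genes. The table holds 75 protein-coding symbols of this kind. The 13 without a matched probe were Hnrnpa0, Hnrnpa1-ps50, Hnrnpll, Prpf39, Snrpd3, Snrpd3l1, Snrpel3, Snrpepl2, Snrpgl1, Snrpn-ps5, Srsf11, Srsf8 and U2af2, and they have no value here.

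The cells were NR8383, an established rat line of alveolar macrophages that grows partly attached and partly floating. All 4 cultures analysed here (replicates 1 to 4) had received TiO2 particles (NM105, also called p25, of the crystal forms anatase and rutile) at 3 cm2/cm2 for 4 h. The study also had untreated cultures, which were not analysed here, so no value below is a response to the particles. Each culture's Cy3-labelled RNA was read on 1 Agilent array, and all 4 arrays lay on 1 slide. The labels call the cultures biological replicates of 1 line, so the spread covers cultures and arrays together.

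The spliceosome removes introns from pre-mRNA. Its snRNPs are small nuclear RNAs wrapped in a ring of Sm proteins, with further proteins particular to each particle. U1 marks the start of an intron and U2, helped by U2AF and the SF3A and SF3B complexes, marks the branch point. The tri-snRNP, rich in PRPF proteins, then completes the catalytic machine. SR proteins mostly favour the use of nearby splice sites by binding exons, and hnRNP proteins often oppose them and also act in mRNA export, stability and translation. In macrophages, splicing and mRNA decay shape the output of inflammatory genes.

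The promoters of 3 members are shown because these genes carried differences between arrays that were the same in 2 separate probes, as described with their values. They run from 250 bases before to 50 after the start of the gene and come from RefSeq (GRCr8), 5′ to 3′ on the gene's strand, at chr4:120369461-120369760 (plus strand) for Snrpg, chr6:33545245-33545544 (plus strand) for Sf3b6 and chr3:80985684-80985983 (plus strand) for Hnrnpa3. Capitals mark the letters CCGGAAG, a core of ETS-family sites, on either strand.
Snrpg: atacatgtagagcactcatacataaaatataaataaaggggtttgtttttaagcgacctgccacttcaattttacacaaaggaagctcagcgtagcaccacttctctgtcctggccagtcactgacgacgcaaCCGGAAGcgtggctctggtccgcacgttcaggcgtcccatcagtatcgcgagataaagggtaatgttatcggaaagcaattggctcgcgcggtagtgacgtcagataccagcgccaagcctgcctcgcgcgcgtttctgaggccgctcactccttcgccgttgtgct
Sf3b6: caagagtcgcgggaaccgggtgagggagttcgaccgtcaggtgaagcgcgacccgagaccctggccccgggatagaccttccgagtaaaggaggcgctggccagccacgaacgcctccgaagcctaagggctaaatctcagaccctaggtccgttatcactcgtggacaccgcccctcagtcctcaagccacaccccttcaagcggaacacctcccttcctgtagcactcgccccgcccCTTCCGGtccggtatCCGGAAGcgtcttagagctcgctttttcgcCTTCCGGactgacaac
Hnrnpa3: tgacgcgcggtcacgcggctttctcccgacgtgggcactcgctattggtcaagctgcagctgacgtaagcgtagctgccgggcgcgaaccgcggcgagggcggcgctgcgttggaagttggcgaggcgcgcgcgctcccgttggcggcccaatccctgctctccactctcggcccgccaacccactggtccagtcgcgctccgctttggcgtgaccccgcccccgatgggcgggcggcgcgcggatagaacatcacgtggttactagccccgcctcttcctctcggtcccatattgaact

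Snrpg held the letters at 1 place, Sf3b6 at 3 and Hnrnpa3 at none. They were present in 17 of the 60 members with a listed promoter (28.3%), in 9.22% of all 27457 listed promoters, and in 21.8% of the 4926 belonging to genes detected on every array. The members' share thus lay nearer to that of detected genes than to that of all promoters. CCAAT, the core of NF-Y sites, stood in 55.0% of members, 37.7% of all promoters and 40.4% of those of detected genes. The letters GGGCGG, a core of SP-family sites, stood in 55.0%, 34.9% and 64.1%, and TATAAA in 10.0%, 14.3% and 6.94%. Both strands were searched and matches of different motifs may overlap. A match is a description of the letters only.

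Most of the splicing machinery gave signal in these cells. Of the 62 members, 52 (83.9%) were well above background on all 4 arrays, against 35.2% of all named genes. Another 5 were detected on 1 to 3 arrays and 5 on none, whereas 53.7% of all named genes were detected on none. A gene counts here as detected when any of its probes is. With every probe of a gene required, 66.1% of members and 29.9% of all named genes were detected on all 4 arrays. By family, all 4 arrays detected 7 of 10 Srsf, 17 of 19 Hnrnp, 8 of 11 Snrp, 8 of 9 Sf3a and Sf3b and 11 of 12 Prpf genes, and U2af1. Of the Sm ring proteins, Snrpb, Snrpd1, Snrpd2, Snrpe and Snrpg were detected on every array and Snrpf on none. Members detected per array numbered 57, 52, 54 and 54 on replicates 1 to 4, and named genes 7549, 5978, 6534 and 6517. The arrays' brightness, taken as the reference signal, was 1431, 585, 767 and 831 intensity units, so the brightest array had most members and most genes, and the dimmest fewest of both.

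The 5 members not detected on any array were Hnrnpcl1, Hnrnph3, Snrpf, Snrpn and Srsf12. Snrpn, an imprinted gene best known from neurons, gave 3.95, 3.56, 3.95 and 3.86 intensity units on replicates 1 to 4. These values lie below the 99th percentile of the negative control spots, which was 5.07 to 5.96. Snrpf, which encodes a core Sm protein, gave 6.96, 3.37, 3.43 and 3.67 units from its only probe. A probe near background gives a bound and does not show that the transcript is absent.

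Srsf1, a founding SR protein, and Snrpb2, a protein of the U2 snRNP, missed the detection rule on replicate 2 alone. Srsf1 gave 51.2, 14.3, 31.7 and 46.4 intensity units on replicates 1 to 4. Snrpb2 gave 129, 18.5, 29.4 and 51.7 units. Prpf38b, Sf3a1 and Srsf6 were detected on replicate 1 only. Replicate 1 was the brightest array and replicate 2 the dimmest, and the part of brightness in these calls was not tested.

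**Figure D1:**
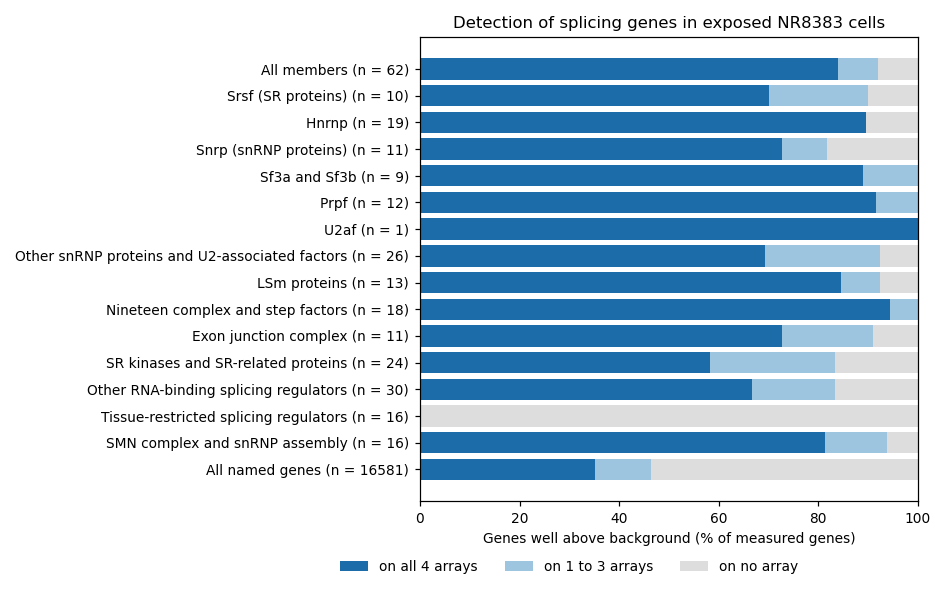
Share of measured genes (x axis, percent) well above background on all 4 arrays, on 1 to 3 arrays and on none, for the members, their families, other splicing lists and all named genes. The members reach 83.9% on all arrays against 35.2% of all named genes, and the tissue-restricted regulators 0%.

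Genes beyond the member families, from lists written for this description, were also mostly detected. Over 8 lists of other splicing genes, 101 of 154 measured genes (65.6%) were detected on all 4 arrays. The Prp19-associated complex and the factors of the catalytic steps reached 17 of 18, the LSm proteins, some of which form the ring on U6 RNA, 11 of 13, and the SMN complex, which loads Sm rings, 13 of 16. Other snRNP and U2-associated proteins reached 18 of 26, the exon junction complex 8 of 11, SR kinases and SR-related proteins 14 of 24 and other RNA-binding regulators 20 of 30. Of 16 tissue-restricted regulators, among them the neuronal Nova1, Rbfox3 and Elavl2 and the epithelial Esrp1 and Esrp2, none was detected on any array.

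Within these lists, Cwc27, a cyclophilin-type protein of the spliceosome, varied most (SD 0.72 on the log2 scale, n = 4), with Crnkl1 at 0.52 in the same list. Son, a large nuclear speckle protein, had an SD of 0.53 and Srpk1, a kinase of SR proteins, 0.41. The exon junction gene Magoh stood at 0.41 and Acin1 at 0.36, and Rbm10 at 0.42 and Ptbp3 at 0.37 among RNA-binding regulators. Clns1a and Smn1 of Sm assembly had SDs of 0.37 and 0.30. Not detected on any array were Pnn, Srpk3, Dyrk1a, Srrm2, Scaf8, Tgs1, Mbnl3, Qki, Fubp3 and Rbfox2, among others.

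As a check of the label, 7 of 10 macrophage markers were detected on all 4 arrays, Mrc1 on some, and Adgre1 and Marco on none. Of 21 markers of other cell types, 19 were detected on no array, Col1a1 on some and Cdh5 on all 4. Levels of Cdh5 deviated from their mean by -0.39 on replicate 1 and 0.40 on replicate 2, and the part of other cells in any value here was not tested.

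The 52 members detected on all arrays varied between cultures about as much as other genes. A level is the log2 processed intensity relative to the array's reference, the 75th percentile of probes detected on all 4 arrays, so a negative level lies below the reference. Levels of different genes come from different probes and are not set against each other. The median SD over the 4 arrays was 0.215 for members and 0.225 for the 5824 genes with levels. Family medians were 0.191 for Hnrnp, 0.201 for Sf3a and Sf3b, 0.211 for Snrp, 0.242 for Srsf and 0.298 for Prpf. Dim probes vary more: above the median level of all genes the median SD was 0.207 for 32 members and 0.191 for all genes, and below it 0.263 for 20 members and 0.271 for all genes.

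The highest array was at least 2-fold above the lowest for 2 of the 52 members (3.85%), Hnrnpd among them, against 8.96% of all genes. At 1.5-fold the counts were 18 members (34.6%) and 38.8% of all genes. Both shares lie at or under the background, so the members did not stand out by the size of their differences. Without replicate 1 no member reached 2-fold. The median SD of all genes also fell without that array, to 0.189, and their 2-fold share there is not given.

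**Figure D2:**
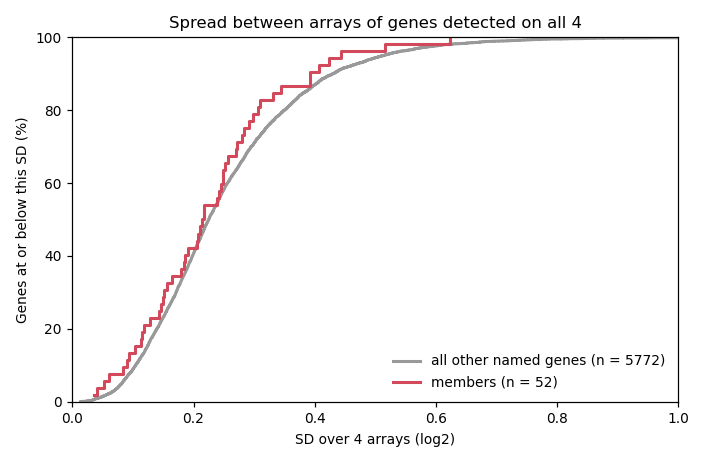
Cumulative share of genes (y axis, percent) at or below each SD over the 4 arrays (x axis, log2 scale), for 52 members and 5772 other named genes detected on all arrays. The curves run close together, with medians of 0.215 for members and 0.225 for all genes.

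The direction of the differences was less even than their size. Levels on replicate 3 exceeded those on replicate 2 for 42 of 52 members (80.8%), against 50.8% of all genes. All 7 Srsf genes with levels, 14 of 17 Hnrnp, 7 of 8 Snrp, 6 of 8 Sf3a and Sf3b and 7 of 11 Prpf genes did so, and 66 of 101 genes (65.3%) of the other splicing lists. The median difference was small: replicate 2 minus replicate 3 gave -0.16 over members and -0.01 over all genes. Other scalings and background correction lowered both shares, to between 57.7% and 73.1% for members and between 38.2% and 45.3% for all genes. Averaging a gene's probes gave 78.8% and 50.9%, and the members' share was the higher under each of these 5 alternatives. Of these, the 2 other references shift all genes of an array alike. Averaging leaves genes with 1 detected probe unchanged. This comparison of arrays was chosen after the values were seen, genes on 1 array are not independent, and it has no test.

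Counted by their extremes, 22 members (42.3%) were highest on replicate 1, against 37.8% of all genes, and 17 (32.7%) on replicate 3, against 19.1%. The lowest value fell on replicate 2 for 23 members (44.2%), against 32.2% of all genes. Scaling decides part of this: with the median of detected probes as reference, or the percentile over all probes, 10 members (19.2%) were highest on replicate 1, now below the 27.0% and 23.8% of all genes. With quantile normalization or the percentile over all probes, 15 (28.8%) were lowest on replicate 2, against 23.6% and 22.0% of all genes. On replicates 1 to 4 in turn, members lay at a median of 0.06, -0.08, 0.05 and -0.03 from their means, and all genes at 0.06, -0.01, -0.01 and -0.01. On replicate 2 the 20 dimmer members lay at a median of -0.18 and the 32 brighter ones at -0.04, against -0.07 and 0.03 for all genes split at the same level. Replicate 2 was the dimmest array, and the part of brightness in this pattern was not tested further.

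**Figure D3:**
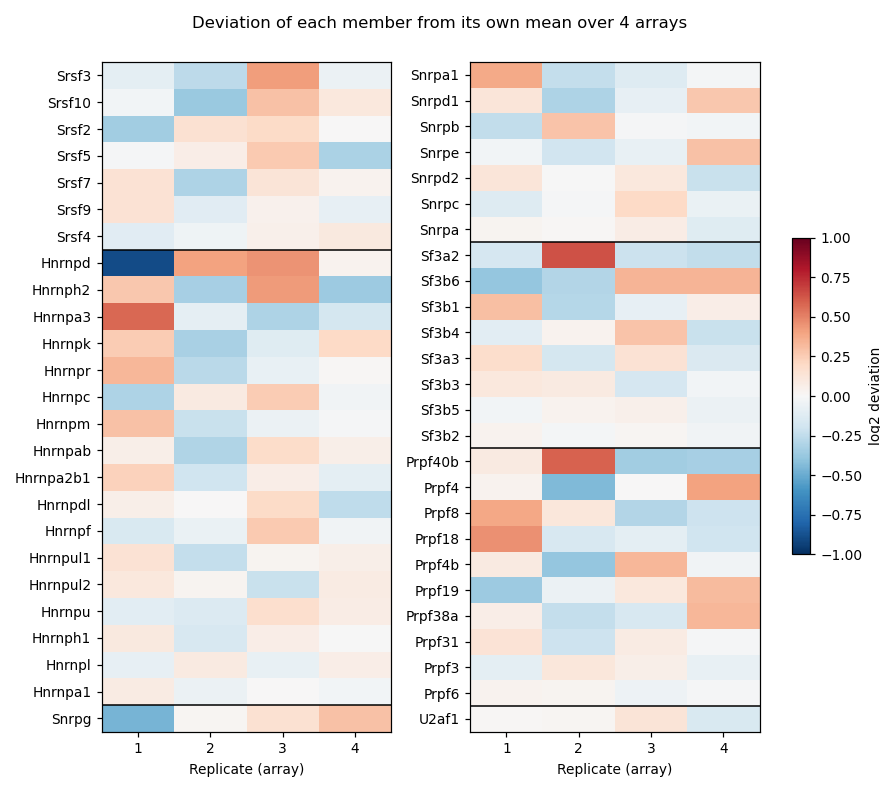
Deviation of each of 51 members (rows, ordered by family and by SD) from its own mean on each array (columns), in log2 units from blue (lower) to red (higher). Hnrnpd on replicate 1 is the deepest blue and Sf3a2 on replicate 2 the deepest red, and blue prevails on replicate 2.

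Among SR proteins, Srsf3, the smallest of the family, was highest on replicate 3, with levels of -1.80, -1.96, -1.28 and -1.76 on replicates 1 to 4 (mean -1.70 ± 0.29, SD, n = 4). Replicate 3 stood above the other 3 arrays. Srsf10, a repressor that becomes active when dephosphorylated, was also highest on replicate 3, at -3.29, -3.64, -2.97 and -3.16 (mean -3.26 ± 0.28). Both kept replicate 3 as highest under all 5 alternatives. Averaging probes cannot change a gene with 1 probe detected on all arrays. This holds for Srsf3, Srsf10 and Srsf4, and below for Hnrnpd, Hnrnph2, U2af1 and the Prpf genes named with values. Srsf4 varied little, at -2.46, -2.39, -2.30 and -2.25 (mean -2.35 ± 0.09), although normexp background correction raised its SD to 0.35.

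In the hnRNP family, Hnrnpd had the widest range of all members, 2.54-fold. Its protein, also called AUF1, binds AU-rich elements of mRNAs and is known for promoting their decay. Levels were -5.29, -3.99, -3.94 and -4.35 on replicates 1 to 4 (mean -4.39 ± 0.62, SD, n = 4). Averaging probes cannot change this gene, which has 1 probe. Under each of the other alternatives replicate 1 stayed lowest, whereas replicate 2 became highest. Its only probe was dim, with 36.6, 36.9, 49.9 and 40.7 intensity units before scaling, while the reference signal ranged from 585 to 1431.

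Hnrnpa3, a relative of hnRNP A1, stood out on replicate 1. Its levels were -1.02, -1.69, -1.90 and -1.78 (mean -1.60 ± 0.39), a range of 1.84-fold, with replicate 1 above the others and replicate 3 lowest under all 5 alternatives. The 2 probes printed at 10 spots each deviated by 0.58 and 0.57 on replicate 1, and by -0.21 and -0.31 on replicate 3. A further 4 probes of the gene did not pass the detection rule on every array. Hnrnph2, a binder of G tracts, gave -4.14, -4.75, -3.98 and -4.77 (mean -4.41 ± 0.41), highest on replicate 3 under all 5 alternatives. Under normexp correction its lowest array became replicate 1 and its SD 0.20.

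Hnrnpk, a binder of C-rich RNA, was lowest on replicate 2 under all 5 alternatives, with levels of 0.14, -0.44, -0.24 and 0.08 (mean -0.12 ± 0.27). Hnrnpa1, a splicing repressor that also serves in mRNA export, varied little, at -0.28, -0.43, -0.36 and -0.39 (mean -0.37 ± 0.06). Hnrnpl, which binds CA repeats, gave 2.04, 2.20, 2.04 and 2.19 (mean 2.12 ± 0.09). The values of Hnrnpa1 and Hnrnpl spread less than the family's median SD, and those of Hnrnpk more.

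Of the snRNP proteins, Snrpg, a member of the Sm ring, was lowest on replicate 1 and highest on replicate 4 under all 5 alternatives. Levels were 2.74, 3.23, 3.36 and 3.50 (mean 3.21 ± 0.33, SD, n = 4), a range of 1.69-fold. Its 2 probes, 10 spots each, deviated by -0.43 and -0.47 on replicate 1 and by 0.24 and 0.29 on replicate 4. Snrpa1, the A′ protein of the U2 snRNP, differed on replicate 1, its highest array under all 5 alternatives, at -1.81, -2.43, -2.32 and -2.21 (mean -2.19 ± 0.27). Snrpa, the A protein of the U1 snRNP, varied little, at -0.52, -0.53, -0.47 and -0.66 (mean -0.54 ± 0.08).

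Snrpc, the U1 protein that touches the start of the intron, gave 0.64, 0.76, 0.97 and 0.70 (mean 0.77 ± 0.14). Of the other Sm genes, Snrpb was highest on replicate 2, at 1.70, 2.22, 1.93 and 1.92 (mean 1.94 ± 0.22). Snrpe and Snrpd1 were highest on replicate 4, as was Snrpg, at 0.36 and -1.61. Unlike Snrpg, both were lowest on replicate 2, at -0.12 and -2.18, and they had the same order of arrays. In the second probe of each gene, replicates 1 and 3 changed places in that order. Snrpd2 was lowest on replicate 4, at 0.75. The detected Sm genes thus did not all share 1 order of arrays. The orders of Snrpb, Snrpd1, Snrpd2 and Snrpe were not examined under the alternatives.

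In the SF3A and SF3B complexes, Sf3a2 was high on replicate 2 alone, with levels of 1.55, 2.36, 1.51 and 1.47 (mean 1.72 ± 0.42, SD, n = 4). Replicate 2 was highest under all 5 alternatives, 0.63 above the mean of this probe. The gene's other detected probe was dim, at 21.6, 20.9, 19.3 and 19.0 intensity units before scaling, and deviated by -0.65 on replicate 1 and 0.60 on replicate 2. Sf3b6, the small protein that contacts the branch point adenosine, separated the arrays into pairs, at -0.63, -0.54, 0.09 and 0.09 (mean -0.25 ± 0.39). Its 2 probes deviated by -0.38 and -0.44 on replicate 1 and by 0.34 and 0.49 on replicate 3. Under normexp correction its lowest array was replicate 2. Sf3b2 varied little, at 0.16, 0.10, 0.14 and 0.09 (mean 0.12 ± 0.04), the lowest SD of all members here. Other members had lower SDs under each of the 5 alternatives, Hnrnpa1 the lowest under 3 of them, and the SD of Sf3b2 was 0.09 under normexp correction.

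Among PRPF proteins, Prpf40b, which belongs to the U1 side of early complexes, was dim. Its levels were -4.92, -4.42, -5.36 and -5.34 (mean -5.01 ± 0.44, SD, n = 4), with replicate 2 highest under all 5 alternatives and 2 further probes detected on no array.

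Prpf4, a tri-snRNP protein, was lowest on replicate 2 and highest on replicate 4 under all 5 alternatives, at -2.32, -2.80, -2.35 and -1.96 (mean -2.36 ± 0.34). Prpf3, which binds Prpf4 in the same particle, varied little, at -4.18, -3.97, -4.03 and -4.16 (mean -4.08 ± 0.10), but its SD was 0.33 under normexp correction. Prpf8, the scaffold of the catalytic core, was lowest on replicate 3 under all 5 alternatives, at 0.27, -0.01, -0.41 and -0.32 (mean -0.12 ± 0.31). Prpf6, which bridges parts of the tri-snRNP, gave -1.14, -1.15, -1.23 and -1.19 (mean -1.18 ± 0.04), and its SD was between 0.09 and 0.10 under normexp, quantile normalization and scaling over all probes. U2af1, the subunit that reads the end of the intron, gave 0.52, 0.53, 0.64 and 0.36 (mean 0.51 ± 0.11), with replicate 4 lowest under all 5 alternatives.

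**Figure D4:**
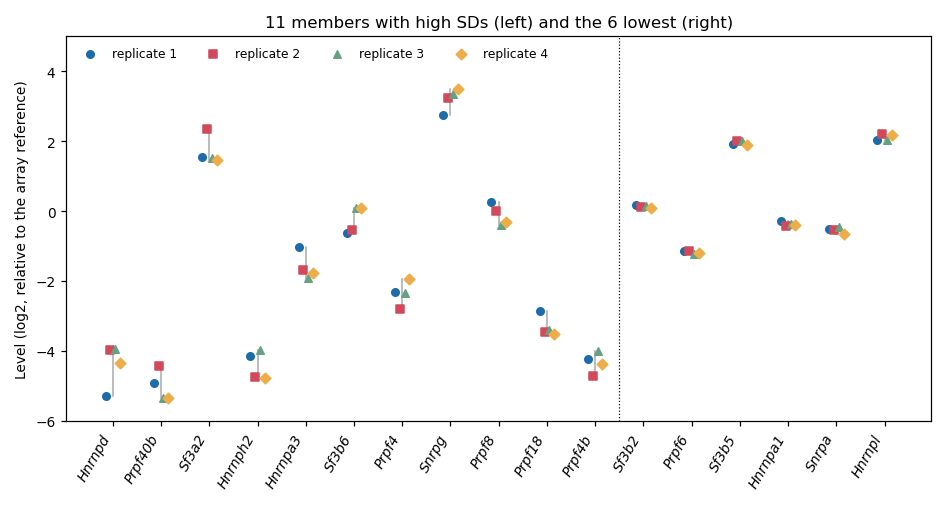
Level (y axis, log2 relative to the array reference) of 11 members with high SDs and the 6 with the lowest SDs on each of 4 arrays, 1 symbol per replicate, with a grey line over the range. Points are to be compared within a gene only: Hnrnpd spans 1.34 and Sf3b2 0.08 log2 units.

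Spots printed more than once allowed a test between arrays. In limma's moderated F test over 871 genes with probes at 2 or more spots, 17 members were tested and 0 passed an adjusted p of 0.05 together with a 2-fold range, against 4.25% of the genes tested. By adjusted p alone 16 members passed (84.6% of the genes tested did), and by unadjusted p the count was also 16. The exception was Snrpc, with an adjusted p of 0.369. At 1.5-fold 4 members passed (23.5%), against 25.7% of the genes tested. They were Hnrnpa3 (limma adjusted p = 1.20e-19), Snrpg (limma adjusted p = 4.55e-13), Sf3b1 (limma adjusted p = 2.69e-12) and Hnrnpr (limma adjusted p = 0.0273). Sf3b1, the branch point protein targeted by several splicing inhibitors, lay at -1.25, -1.84, -1.63 and -1.48. All spots of an array read the same RNA, so the test sets arrays against spot noise and says nothing of cultures or treatment.

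Several probes of a gene gave another check. Of 19 members with 2 or more probes detected on all arrays, 3 (15.8%) had probes whose deviations differed by at least 0.5 on some array, against 19.6% of all such genes. For 13 members (68.4%) they stayed within 0.25, against 45.1% of all such genes. The closest were Hnrnpab and Snrpg, at a largest gap of 0.05 each, Snrpd2 at 0.06 and Snrpe at 0.07. The 3 with differing probes were Hnrnpa1 (gap 0.77), Snrpc (0.65) and Hnrnpk (0.51).

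In Hnrnpa1 the probe at 10 spots deviated by at most 0.08, while 2 dim probes of 1 spot opposed each other, at 0.43 and -0.34 on replicate 2. In Snrpc a dim probe dropped by 0.77 on replicate 1, where the other 2 deviated by -0.13 and -0.15. In Hnrnpk the brightest probe was at 0.20 on replicate 4 and the other 3 between -0.24 and -0.14. The reference table also lists pseudogenes, 50 named after Hnrnpa1, 10 each after Snrpc and Srsf3, 8 after Snrpg and 7 after Hnrnpk. None had a matched probe, and whether the members' probes also read such copies was not tested.

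**Figure D5:**
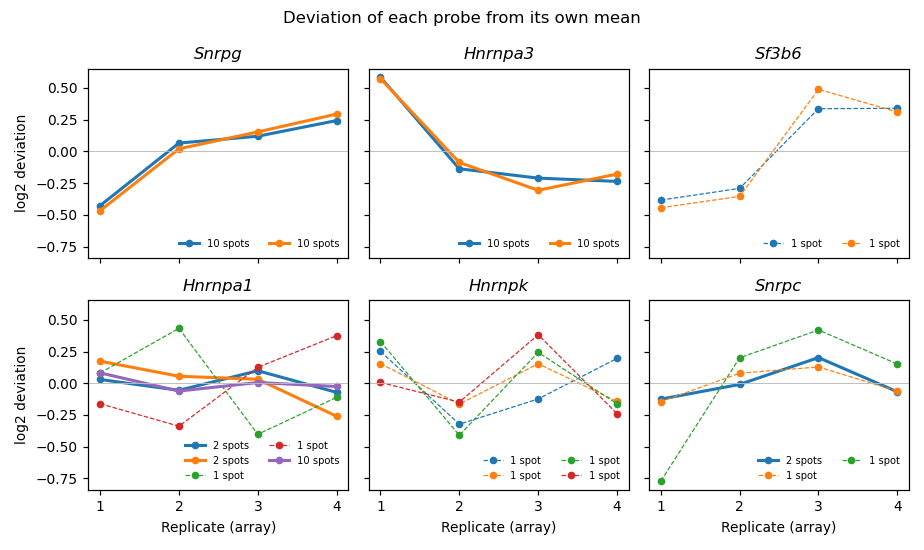
Deviation (y axis, log2) of each detected probe from its own mean on 4 arrays (x axis) for 6 members, with solid lines for probes at 2 or 10 spots and dashed lines for probes at 1 spot. The probes of Snrpg, Hnrnpa3 and Sf3b6 run together, and those of Hnrnpa1, Hnrnpk and Snrpc part by 0.77, 0.51 and 0.65 at most.

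Of 30 members with several probes, 11 (36.7%) had at least 1 probe detected on all arrays and at least 1 that was not. The share was 23.7% of the 3658 genes with several probes. Both totals include genes with no probe detected on all arrays, which cannot be of this kind. Members were detected on all arrays more often than all named genes (83.9% against 35.2%), so these shares are not a like comparison of probes. For Srsf7, the probe for 1 transcript record was detected on 4 arrays and the probe for another, predicted record on 0. For Srsf10, probes for 2 predicted records were detected on 3 arrays and on 1, beside the probe detected on 4. Second probes of Sf3b1, Prpf18 and Prpf31 were detected on 0 arrays.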

How the data were processed

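Each deposited file gives 1-colour intensity per spot, measured by Agilent Feature Extraction 11.0.1.1 on design 074036 (per the file headers). The processed intensity was background-subtracted and detrended within each array by the authors' software, and was not normalized between arrays. Deposited flags of 0 or 1 mark spots well above background or not uniform. No spot was saturated, and control spots were left out. Outlier spots were left out of the signal values but still counted in the detection calls. Repeated spots were averaged as log2 values and set against the array's 75th percentile over the 22.9% of probes detected on all 4 arrays. A probe was detected when over 50% of its spots were well above background, and a gene when any probe was. A gene's level is that of its detected probe with the highest mean. Of 45598 probes, 21109 (46.3%) matched a symbol.

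Depth on arrays is signal over background, and precision is limited by having 4 arrays. Differences between arrays were tested by a moderated F from limma 3.58.1 (R 4.3.3), spots being the replicates, with Benjamini-Hochberg adjustment over 1594 probes. The steps were first tested on simulated data. Python 3.11.15 did the rest. In each family the members of highest and lowest SD were named with values (4 and 2 in families of 10 or more detected members, otherwise 2 and 1), with U2af1, members past the limma test and members whose probes differ. Others named, such as Snrpb, Snrpd1, Snrpd2, Snrpe, Sf3b1 and members near background, were added after their values were seen. A gene that this rule picks is not reported here. The members and lists were chosen with earlier results of these data known. Alternatives were normexp (offset 50, on the median spot signal), quantile normalization, 2 other references, averaging a gene's probes, keeping dim probes, other rules of detection, folds and gaps, and each replicate left out.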

Additional observations from a re-analysis of the deposited data

Results flagged for a closer look

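The level of Sf3a2 set 1 array apart: replicate 2 lay so far above the others that the gap to its nearest neighbour was 0.909 of the whole range, above Dixon's critical value for 4 values. Of 29 sets of 4 values examined, this was the 1 that passed, and chance flags about 1 in 20. Its cause was not tested.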

How the results depend on the processing

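No paired analysis was possible because all 4 arrays belong to 1 group. Counts of detected members, and of members higher on replicate 3 than on replicate 2, stayed within 1.5 times their values under every alternative run for them. With normexp correction the median SD was 0.178 for members and 0.183 for all genes. At 2-fold there was then 1 member (1.92%), against 4.84% of all genes. The members' median deviation was -0.0474 on replicate 1 and -0.0033 on replicate 2. Scaling to the median of detected probes gave 10 members highest on replicate 1 and a median deviation of -0.0211 there. Scaling over all probes gave 10 highest on replicate 1, 15 lowest on replicate 2, and median deviations of -0.0436 and 0.0119 on these arrays. Quantile normalization gave 15 lowest on replicate 2. These settings moved all genes too: the median of all genes on replicate 1 went from 0.06 to -0.08 with normexp, and on replicate 2 from -0.01 to 0.09. Relative to all genes, the members' median on replicate 2 was -0.06 and was -0.10 under normexp, -0.07 under quantile normalization and -0.10 with a gene's probes averaged. The other 2 references shift all genes of an array alike and cannot move it. Without the filter on dim probes 11 of 62 members reached 2-fold (17.7%, against 52.8% of all genes) and limma called 1 of 18, Snrpn, which was near background (5.56%, against 27.3%). A minimum of 1.5-fold gave 18 members by range and 4 by limma, no minimum gave 16 by limma, and a probe gap of 1 gave 0 members, against 3.48% of genes.

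With each replicate left out in turn, 0 to 3 members reached 2-fold (0 without replicate 1). The members highest on replicate 3 numbered 19 to 27 (27 without replicate 1). With fewer arrays, more genes fall highest on those left. Shares over all genes are not given for these counts, so the counts do not set the members apart. The median SD was 0.162 to 0.224 for members and 0.189 to 0.239 for all genes. The cause of these changes was not tested. The count highest on replicate 1 has no value without that array. The SDs of Prpf3, Prpf6, Sf3b2 and Srsf4, all small, moved by more than their own size under normexp. Dim members, Hnrnpd and Prpf40b among them, are the least precise. The pattern on replicates 2 and 3 was described after the data were seen, and no untreated culture was used.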

Other observations

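The CCGGAAG letters stood in similar shares of promoters of all genes whichever array was highest, from 20.9% of 1871 genes highest on replicate 1 to 23.3% of 957 highest on replicate 3. Among members they stood in 4 of the 20 highest on replicate 1, 2 of 5 on replicate 2 and 3 of 17 on replicate 3. On replicate 4 they stood in 6 of 8, against 22.3% of the 740 genes highest there. These counts are small, were looked at after the levels were known, and have no test.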
